A study of Mus musculus with 12 samples.

Results

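Open chromatin was examined at the genes Sall1 and Sall3 in engrafted brain macrophages and host microglia of bone marrow (BM) chimeric mice. Every peak whose nearest annotated gene was Sall1 or Sall3 was taken, which gave 60 of the 115241 regions in the merged tables. The untreated table held 36 of these (22 at Sall1 and 14 at Sall3, of 60288 peaks), and the table of mice given lipopolysaccharide (LPS, a bacterial endotoxin) held 24 (14 and 10, of 54953). Accessibility was measured by ATAC-seq (a transposase cuts open DNA and adds adapters to it) and is given as the number of sequencing tags in each peak.

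All mice were wild-type C57BL/6J, were irradiated with 950 cGy and received donor BM. By the labels, brain cells were taken 3.5 or 9 months later, without saying which interval belonged to which mouse. The study's text gives 9 months for the chimeras used for ATAC-seq, both untreated and given LPS. From each brain, cells with the CD45.1 form of the leukocyte antigen CD45 (derived from the graft) and cells with the CD45.2 form (the host microglia) were sorted. This gave 4 groups of 3 libraries. Mice 4, 5 and 6 were untreated and gave the 2 untreated groups. Mice 1, 2 and 3 were killed 12 h after 2.5 mg/kg LPS and gave the 2 LPS groups. CD45.1 and CD45.2 libraries of the same number came from the same mouse. The sort took CD11b+ cells with low CD45 and without Ly6C or Ly6G, so each library is a pool of sorted cells, in which fewer cells with an open site and less opening per cell cannot be told apart.

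Sall1 and Sall3 encode zinc finger transcription factors of the spalt-like family, which repress genes by recruiting the nucleosome remodelling and deacetylase (NuRD) complex. In the brain Sall1 is known as a microglial factor that other tissue macrophages lack, and loss of it in microglia leads to loss of their characteristic gene expression. Distal elements are usually opened by the lineage factor PU.1 together with partner factors, and signalling through transforming growth factor beta (TGF-beta) is required for microglial identity.

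The sequences of 4 Sall1 peaks are shown. Among them are the pair of intergenic peaks with the highest host signal and the stronger of the peaks in the first intron. The remaining one is a distal peak, chosen because it holds a full PU.1 word. All 4 were read from the plus strand of mm9, 5′ to 3′. Sall1 lies on the minus strand (chromosome 8, 91551147 to 91568061, start site at 91568061). Capitals mark matches to the words searched here, which were CAGAC (SMAD), GAGGAAGT (PU.1) and a composite ETS-IRF word for these peaks, on either strand.
Sall1 peak at −360.3 kb, chr8:91928289-91928437: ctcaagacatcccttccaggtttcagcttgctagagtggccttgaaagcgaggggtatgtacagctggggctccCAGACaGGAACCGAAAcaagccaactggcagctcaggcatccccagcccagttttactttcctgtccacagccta
Sall1 peak at −348.7 kb, chr8:91916722-91916875: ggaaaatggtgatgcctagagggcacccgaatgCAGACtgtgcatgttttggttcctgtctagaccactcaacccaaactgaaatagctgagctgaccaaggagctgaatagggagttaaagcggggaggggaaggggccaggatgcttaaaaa
Sall1 peak at −138.4 kb, chr8:91706417-91706550: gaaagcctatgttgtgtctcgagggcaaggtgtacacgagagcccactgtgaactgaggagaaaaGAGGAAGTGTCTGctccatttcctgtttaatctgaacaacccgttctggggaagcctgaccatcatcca
Sall1 peak at +1.2 kb, chr8:91566766-91566966: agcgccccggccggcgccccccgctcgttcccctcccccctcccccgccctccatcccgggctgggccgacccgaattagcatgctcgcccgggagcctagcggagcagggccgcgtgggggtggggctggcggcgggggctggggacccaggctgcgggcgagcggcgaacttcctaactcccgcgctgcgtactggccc
In the −138.4 kb peak the PU.1 word GAGGAAGT was followed directly by the reverse complement of the SMAD word. In 200 bp around peak centres, these words were found in 9.45% and 41.0% of all untreated peaks. Whether either word acts at this site was not tested. The +1.2 kb peak lies in a CpG island and held none of the words.

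Libraries of untreated mice held 8392880 to 9107770 total tags and those of LPS mice 2966360 to 6556590, so that single LPS peaks rest on fewer tags. Replicates of a group correlated with r from 0.847 to 0.950 across peaks. In CD45.2 of untreated mouse 4, 18.4% of tags lay in merged peaks, against 29.7% to 39.0% in the other untreated libraries. All 9 markers of macrophages and microglia (Spi1, Csf1r, Itgam, Cx3cr1, Aif1, Fcgr1, Ptprc, Laptm5 and Tyrobp) had peaks, with 361 to 393 CPM (tags scaled to the total of each library) in CD45.1 and 200 to 499 in CD45.2 of untreated mice, and 278 to 402 and 246 to 367 after LPS. Of the 5 neuron markers, Stmn2 had no peak, and the other 4 together had 6.87 to 7.68 CPM in CD45.1 and 14 to 32.2 in CD45.2 of untreated mice (3.86 to 6.38 and 15.3 to 18.9 after LPS). The part of cells or DNA of other kinds in the Sall1 and Sall3 results was not tested. T cell markers (21.6 to 22.7 against 13 to 29.3), B cell markers (17.5 to 20.1 against 5.49 to 13.2), neutrophil markers (12.7 to 15.2 against 7.85 to 15.1), astrocyte markers (40.4 to 58.1 against 31.0 to 75.5) and oligodendrocyte markers (107 to 123 against 67.1 to 146) are given in the same unit for untreated CD45.1 and CD45.2. After LPS these were 9.24 to 17.3 against 13.3 to 16.9, 7.73 to 14.9 against 3.71 to 7.55, 15.2 to 27.0 against 15.8 to 28.7, 83.3 to 117 against 71.0 to 80.1, and 98.8 to 131 against 90.9 to 108. Cd3e, Cd3g, Cd8a, Cd79a, Pax5 and Olig2 had no peak in either table. All marker sums take every peak whose nearest gene is the marker, so they do not measure cell shares. In untreated mice, T cell, B cell and neutrophil markers had 0 promoter peaks. Promoter peaks of macrophage markers had 77.6 to 98.2 CPM in CD45.1 and 48.9 to 109 in CD45.2. Those of neuron markers had 0.592 to 1.68 and 0.220 to 1.69. Astrocyte marker promoters had 1.10 to 2.13 and 2.64 to 7.80, and oligodendrocyte ones 4.47 to 5.57 and 3.24 to 4.89.

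The first comparison asked how the Sall1 locus differed between engrafted and host cells at rest. In untreated mice, open sites far upstream of Sall1 and in its first intron were strong in host microglia and weak in engrafted cells. Of 22 Sall1 peaks, 22 were tested, and 20 were called higher in CD45.2 (DESeq2, adjusted p under 0.01 and more than 4-fold, 3 libraries per group), while 2.65% of all 59034 tested peaks were called in that direction. No Sall1 peak was called higher in CD45.1 by DESeq2, beside 3.79% of all tested peaks, with 0 at an unadjusted p under 0.05 in that direction and 0 called by edgeR, while edgeR called 22 higher in CD45.2. In all 22 peaks every CD45.2 library lay above every CD45.1 library, as in 17.7% of all tested peaks. Of the 22 peaks, 16 were in no peak list of a CD45.1 library, so they entered the merged peaks through CD45.2. The count filter can also be met by 1 population alone. Both favour calls higher in CD45.2, and the shares over all peaks are not limited to such peaks. The number of called peaks fell to 8 when CD45.2 of mouse 5 was left out, to 11 when CD45.2 of mouse 6 was, and to 12 when CD45.1 of mouse 4 was.

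**Figure D1:**
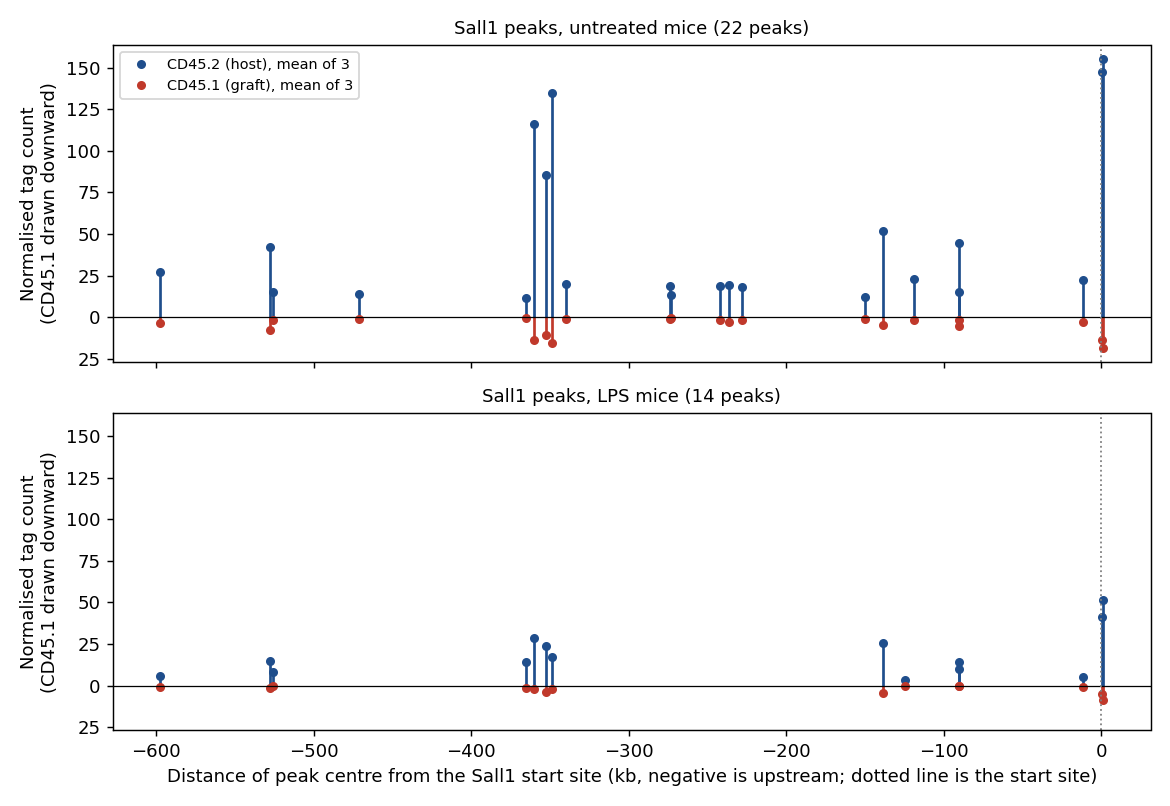
Mean normalised tag count of each Sall1 peak (vertical axis, CD45.2 upward and CD45.1 downward, 3 libraries each) against its distance from the Sall1 start site in kb, in untreated mice (22 peaks) and LPS mice (14 peaks). The highest bars stand between −360.3 and −348.7 kb and beside the start site, and CD45.1 bars are short at every peak. The panels were normalised separately.

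Most of the host signal lay in 2 stretches of the locus. Peaks less than 20 kb apart were joined, and the group of 5 peaks from −365.1 to −339.9 kb held 35.8% ± 0.930 (SD, n = 3) of the Sall1 tags of untreated CD45.2 libraries. The 3 peaks from −11.9 to +1.2 kb held 31.7% ± 1.41. The other 7 groups, which reached out to −597.4 kb, held from 1.38% to 8.46% each. No Sall1 peak was annotated to the promoter, and the nearest to the start site lay at +0.5 kb, within intron 1 of 3 and a CpG island. Of the 22 peaks, 20 were intergenic and 2 were intronic.

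The strongest Sall1 peak was that at +1.2 kb (mm9 chromosome 8, 91566766 to 91566966). It had 17.3, 32.9 and 4.36 normalised tags in CD45.1 of mice 4, 5 and 6, and 155, 163 and 148 in CD45.2 of the same mice. The groups were far apart, and the CD45.2 libraries differed less among themselves than the CD45.1 libraries did (log2 fold change of CD45.1 over CD45.2 −3.09, SE 0.668, DESeq2 adjusted p 8.88e-05). At +0.5 kb (91567510 to 91567692), CD45.1 had 17.3, 21.9 and 1.09 tags and CD45.2 had 161, 146 and 135 (−3.46, SE 0.859, adjusted p 0.000890). The +1.2 kb peak was called whichever library was left out, and the +0.5 kb peak was not without CD45.1 of mouse 4 or any 1 of the CD45.2 libraries (adjusted p up to 0.0356). Both intronic peaks showed the same order of mice in CD45.1, with mouse 6 the lowest and mouse 5 the highest.

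The upstream group reached nearly the level of the intronic peaks. At −348.7 kb, CD45.1 had 9.79, 30.6 and 5.44 tags and CD45.2 had 147, 145 and 112 (−3.13, SE 0.677, adjusted p 9.32e-05). The −360.3 kb peak had 19.1, 19.6 and 2.18 tags against 123, 115 and 110 (−3.07, SE 0.686, adjusted p 0.000165). The −352.6 kb peak, which overlaps an L2 element of the LINE class, had 7.46, 21.4 and 2.18 against 62.3, 104 and 90.5 (−3.02, SE 0.788, adjusted p 0.00182). The −348.7 kb call was kept without any 1 library, that at −360.3 kb was lost without any 1 CD45.2 library (adjusted p up to 0.0170), and that at −352.6 kb without CD45.1 of mouse 4 or any 1 CD45.2 library (up to 0.0576). At all 3 sites the lowest host library lay well above the highest engrafted one. The remaining members of the group, at −365.1 and −339.9 kb, were weaker in CD45.2 (means 11.8 and 20.2 tags), and no CD45.1 library held more than 3 tags at either.

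The farthest Sall1 peak, at −597.4 kb, had 2.80, 5.48 and 1.09 tags in CD45.1 against 23.8, 31.3 and 26.8 in CD45.2 (−3.08, SE 0.621, adjusted p 2.31e-05). Its groups did not overlap either. The peaks that missed the call were at −525.6 kb (0.466, 5.02 and 0 against 10.7, 20.1 and 15.4 tags, adjusted p 0.140) and at −90.4 kb (5.13, 10.04 and 0 against 27.0, 60.4 and 45.9 tags, adjusted p 0.0130). In both, the fitted difference was beyond 4-fold (−3.03 and −3.06) with a large SE (1.38 and 0.959), and the groups did not overlap. Next to the latter, the −90.2 kb peak was called, with 0, 1.37 and 2.72 against 16.4, 18.2 and 11.4 tags.

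**Figure D2:**
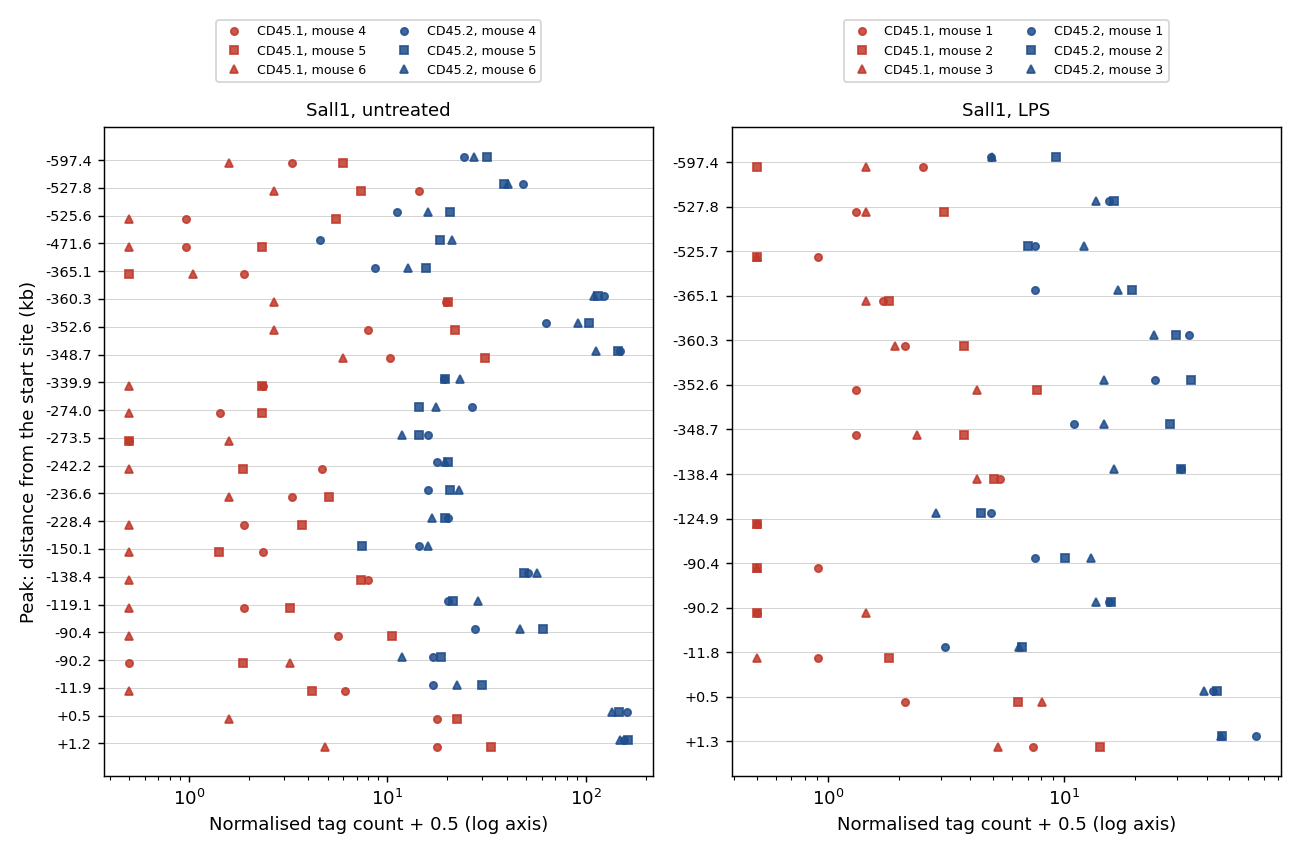
Normalised tag count plus 0.5 on a log axis (horizontal) of each Sall1 peak, listed by distance from the start site in kb, in each of the 6 libraries of untreated mice and of LPS mice, with colour for the population and marker shape for the mouse. CD45.2 and CD45.1 points do not overlap in any of the 22 untreated peaks, and CD45.1 of mouse 6 lies lowest of the CD45.1 libraries in 19 of them.

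Across the 14 tested untreated Sall1 peaks where a CD45.1 library held more than 3 tags, log2 fold changes ranged from −3.46 to −2.39. In the other 8, every CD45.1 library was at or under 3 tags. There the observed CD45.2 mean was at least 4.03-fold to at least 7.79-fold higher, computed against 3 tags per library and without sampling error. The median over all 22 was −3.26, or −2.99 with those 8 at their bound, beside 0.00102 for all tested peaks. Mean host levels ranged from 11.8 to 155 tags. In the peak lists that the authors called in each library separately, 15 of the 22 sites were found in all 3 CD45.2 libraries and 16 in no CD45.1 library. The shares over all merged peaks were not computed, so these counts only describe the sites. The 6 sites found in some CD45.1 list included those at −360.3, −348.7 and +1.2 kb, each in 2 lists.

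Summed over all Sall1 peaks, CD45.1 had 123, 187 and 23.2 tags in mice 4, 5 and 6 and CD45.2 had 989, 1115 and 1022 (log2 fold change −3.22, SE 0.758, 95% interval −4.71 to −1.74, DESeq2 adjusted p 0.000323). At the level of summed signal per gene, 7.46% of the 16166 tested genes passed in this direction at an adjusted p under 0.05. The CD45.1 library of mouse 6 stood well below those of the other mice. Engrafted cells had 12.5%, 16.7% and 2.27% of the Sall1 signal of host cells in mice 4, 5 and 6. In 19 of the 22 peaks mouse 6 was the lowest of the CD45.1 libraries, and in 11 it had no tag. Without it, the difference was −2.74 (SE 0.143, adjusted p 2.56e-78) and 17 peaks were called.

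The percentages of other genes with higher host signal are given beside these. Klf12, a zinc finger repressor, had 7.42%, 6.59% and 5.94% of the host signal in mice 4, 5 and 6, and Marco, a scavenger receptor, had 1.54%, 1.80% and 2.16%. Rxrg, a retinoid X receptor, had 7.27%, 14% and 10.3%. Sall3 had 30.5%, 27.1% and 24.1%. Cd34, which encodes a surface sialomucin, had 37.6%, 62.9% and 20.3%. Among the neuron markers, Snap25 had 6.57%, 23.4% and 5.72%, and Syt1, with 33.2 to 66.9 tags in CD45.2, had 0.937, 0 and 0 tags in CD45.1. Rbfox3 had 70.4%, 40.4% and 43.3%, and Tubb3, which did not pass (log2 fold change 0.02, DESeq2 adjusted p 0.990), had 90.0%, 73.8% and 158%. Differences between mice cannot be tested, since each mouse gave 1 library per population.

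**Figure D3:**
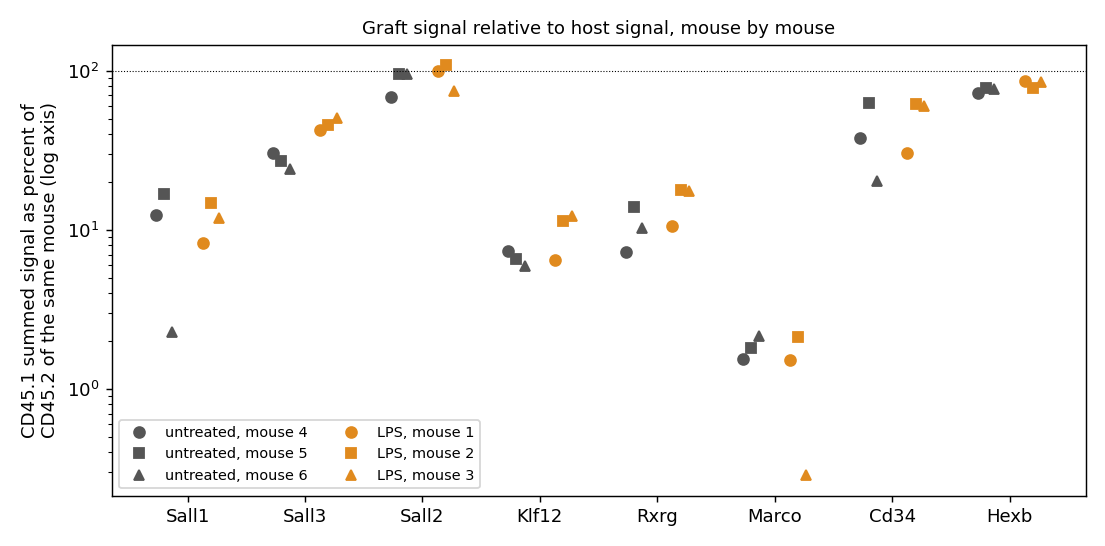
Summed signal of CD45.1 as a percentage of CD45.2 of the same mouse (log axis) for Sall1, Sall3, Sall2 and 5 further genes named as higher in host microglia by the study, with grey for untreated and orange for LPS mice and marker shape for the mouse. Sall1 in untreated mouse 6 lies at 2.27%, far below mice 4 and 5, while the 3 untreated values of Klf12 lie together at 5.94% to 7.42%.

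Assignment to the nearest start site placed some peaks of this stretch of chromosome 8 under another name. Among peaks of other genes within 1 Mb of the Sall1 start site, 51 were tested in untreated mice. DESeq2 called 9 of them higher in CD45.2 (17.6%, beside 2.65% of all tested peaks) and 1, at Adcy7, higher in CD45.1 (beside 3.79% of all tested peaks). Of these 9, 6 carried the name of the microRNA gene Mir8110, which was singled out after its values were seen, and all 6 of its 6 tested peaks were called. The other 3 belonged to Nkd1, Snx20 and Nod2, with 1 called of 3, 7 and 7 tested peaks. Among the Mir8110 peaks, 2 lie inside Sall1 itself, in exon 4 of 4 and exon 3 of 4, and the other 4 lie 22.8 to 129 kb downstream of the Sall1 start site.

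The peak in the last Sall1 exon (chromosome 8, 91552250 to 91552349) had 2.80, 0.913 and 0.544 normalised tags in CD45.1 against 19.7, 24 and 19.9 in CD45.2 (log2 fold change −4.04, SE 0.869, DESeq2 adjusted p 8.43e-05). In exon 3, the peak (91555603 to 91555768) had 0.933, 0 and 0 tags against 16.4, 19.7 and 15.8. In both, every host library exceeded every engrafted one. After LPS, 39 neighbouring peaks were tested and 0 were called by DESeq2. The shares over all tested LPS peaks were low too, at 1.20% higher in CD45.2 and 1.79% higher in CD45.1. Of the neighbours, 6 were higher in CD45.2 at an unadjusted DESeq2 p under 0.05 and 1 was called by edgeR. Of the 4 Mir8110 peaks in LPS mice 3 were tested, and their adjusted p ranged from 0.0202 to 0.0587. The untreated count of 9 fell to 4 when CD45.2 of mouse 6 was left out, and to 5 when CD45.2 of mouse 5 or CD45.1 of mouse 4 was. Within 1 Mb of Sall3, 102 neighbouring peaks were tested in untreated mice. DESeq2 called 1 higher in CD45.2 (0.98%, beside 2.65% of all tested peaks) and 2 higher in CD45.1 (beside 3.79% of all tested peaks).

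The second comparison asked whether the Sall1 difference was present in mice given LPS. It was, at fewer sites and at lower tag counts. Of 14 Sall1 peaks 11 reached the count needed for testing, which was over 10 tags in at least 1 of the 6 libraries. DESeq2 called 11 of these 11 higher in CD45.2, beside 1.20% of 48360 tested peaks, and the groups did not overlap in 11, beside 13.1% of all tested peaks. None was called higher in CD45.1, beside 1.79% of all tested peaks (0 at an unadjusted p under 0.05, 0 by edgeR). All 14 peaks were in no peak list of a CD45.1 library, so they entered through CD45.2. These counts therefore lean towards CD45.2 by selection. With the mouse as a block the number of called peaks was 5. It was 3, 4 and 4 when CD45.1 of mouse 1, 2 or 3 was left out, and 3 and 6 when CD45.2 of mouse 2 or 3 was.

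At +1.3 kb in the first intron (chromosome 8, 91566702 to 91566891), CD45.1 of mice 1, 2 and 3 had 6.87, 13.7 and 4.72 tags and CD45.2 had 64.0, 45.8 and 45.4 (log2 fold change −2.71, SE 0.438, DESeq2 adjusted p 2.42e-07). At +0.5 kb there were 1.62, 5.87 and 7.55 tags against 42.1, 43.6 and 38.6 (−3.16, SE 0.519, adjusted p 4.31e-07). These remained the highest host sites of the locus, and neither showed an overlap of the populations.

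At −360.3 kb, no CD45.1 library held more than 3 raw tags, with 1.62, 3.26 and 1.42 normalised tags against 33.3, 29.2 and 23.4, so CD45.2 was at least 9.37-fold higher (DESeq2 adjusted p 1.15e-05). The −138.4 kb peak, whose PU.1 word is shown above, had 4.85, 4.56 and 3.78 tags against 30.7, 30.5 and 15.7 (−2.46, SE 0.580, adjusted p 0.00113). In untreated mice it had 7.46, 6.85 and 0 tags against 50.8, 48.0 and 56.0 (−3.33, SE 0.485, adjusted p 1.03e-09). With the mouse as a block its adjusted p were 0.0110 after LPS and 0.0158 untreated, and without 1 library up to 0.0473 (all but CD45.2 of mouse 3 mattered) and 0.0397 (each CD45.2 library). Host libraries stood above engrafted ones in both settings. The LINE peak at −352.6 kb had 0.809, 7.17 and 3.78 tags against 23.7, 34 and 14.2 (−2.67, SE 0.647, adjusted p 0.00165). Its call was lost with the block (0.0125) and without CD45.1 of mouse 1 or 3 or CD45.2 of mouse 1 or 2 (up to 0.115), whereas the −360.3, +0.5 and +1.3 kb calls were kept in all of these.

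Of the 11 tested LPS peaks, 4 had a CD45.1 library above 3 tags, with log2 fold changes from −3.16 to −2.46. In the other 7 the observed CD45.2 mean was at least 2.74-fold to at least 9.37-fold higher. The median was −3.43, or −2.46 with those 7 at their bound, beside −0.00766 for all tested peaks. The farthest peak, at −597.4 kb, was too low to test, with 2.02, 0 and 0.944 tags against 4.38, 8.72 and 4.45. The peaks at −124.9 and −11.8 kb were also not tested, with mean host levels of 3.56 and 4.89 tags. The 4 peaks from −365.1 to −348.7 kb held 31.5% ± 4.87 (SD, n = 3) of the host Sall1 signal, and the 3 from −11.8 to +1.3 kb held 37.4% ± 4.44. In the lists called per library, 14 of 14 Sall1 sites were in no CD45.1 list and 5 were in all 3 CD45.2 lists. The shares over all merged peaks were not computed here either, and the LPS libraries were shallower.

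Summed Sall1 signal after LPS was 22.1, 43.7 and 27.4 tags in CD45.1 and 268, 296 and 231 in CD45.2 (log2 fold change −3.15, SE 0.246, DESeq2 adjusted p 4.7e-34), while 2.99% of 15652 genes passed in that direction. Engrafted cells had 8.26%, 14.8% and 11.8% of the host signal in mice 1, 2 and 3. These percentages lay closer together than those of the untreated mice.

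The third comparison asked whether LPS moved the loci differently in the populations. Untreated and LPS libraries came from different mice and from separately merged tables, so treatment and table cannot be told apart. Peaks were matched between the tables where each covered at least 50% of the other, which left 11 Sall1 and 6 Sall3 peaks. Over the 11 Sall1 peaks, normalised across all 12 libraries, CD45.2 had 575 ± 42.4 tags untreated and 351 ± 41.0 after LPS (mean ± SD, n = 3, log2 change −0.71, DESeq2 adjusted p 0.452). CD45.1 had 64.7 ± 49.3 and 43.9 ± 16.1 (−0.57, adjusted p 0.501). Neither change passed, although the host groups did not overlap. The interaction was 0.14 on the log2 scale (SE 0.842, 95% interval −1.51 to 1.79, adjusted p 0.979), an interval that spans a wide range of differences in either direction.

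**Figure D4:**
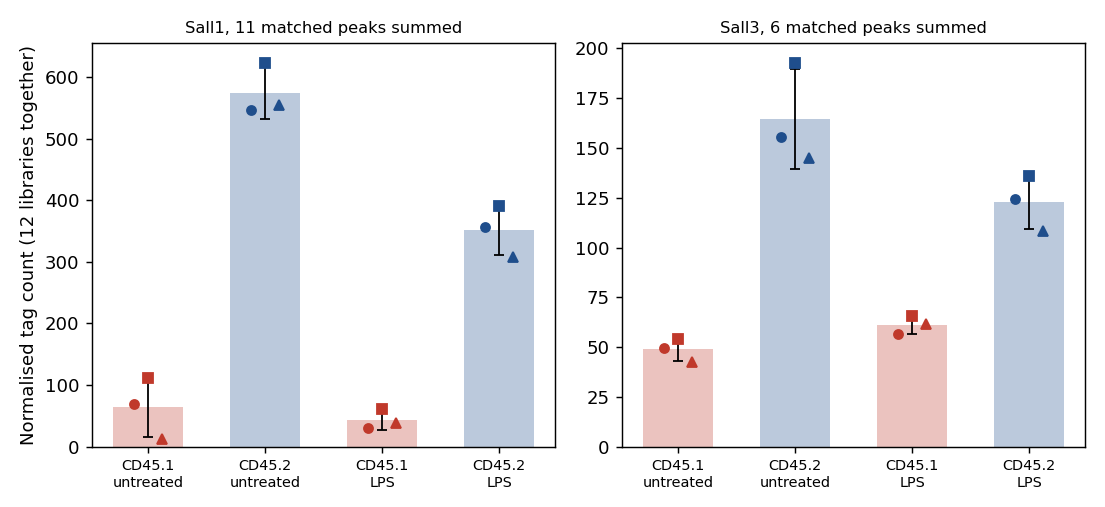
Summed normalised tag count (vertical axis) of the peaks matched between the tables, 11 at Sall1 and 6 at Sall3, in the 4 groups, as bars for the mean with SD (n = 3) and points for libraries. CD45.2 lies above CD45.1 in both genes and both treatments, with Sall1 at 575 and 351 tags in CD45.2 against 64.7 and 43.9 in CD45.1.

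Peak by peak, 2 of 11 Sall1 sites passed as lower after LPS in CD45.2, beside 5.00% of 39209 matched peaks. They were at −360.3 kb (−0.93, DESeq2 adjusted p 0.0197) and −348.7 kb (−1.81, adjusted p 0.0246), and with counts scaled by peak width the adjusted p were 0.0572 and 0.0772. In CD45.1, 1 of 11 passed, at −90.4 kb (−3.73, adjusted p 0.0254), beside 7.42% of matched peaks. That peak was 209 bp wide in the untreated table and 119 bp in the LPS table. At Sall3, 1 of 6 sites passed as lower in CD45.2, at −27.7 kb (−1.98, adjusted p 0.00478, 165 and 131 bp wide). With counts scaled by peak width its change was −1.37 and DESeq2 gave it no adjusted p. The interaction passed at 0 of 11 and 0 of 6 peaks by DESeq2 (0 and 0 at an unadjusted p under 0.05) and at none by edgeR (1 and 0), while 0.242% of all matched peaks passed.

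The Sall3 locus was more mixed. Sall3 lies on the minus strand of chromosome 18 (81163115 to 81183317). In untreated mice 13 of 14 peaks were tested and DESeq2 called 9 higher in CD45.2, beside the 2.65% of all tested peaks given above. None was called higher in CD45.1, beside 3.79% of all tested peaks (0 at an unadjusted p under 0.05, 0 by edgeR). The groups did not overlap in 10 peaks, beside 17.7%. Of the 14 peaks, 11 were in no peak list of a CD45.1 library, so selection through CD45.2 applies here too. The number of called peaks was 5 with the mouse as a block, 5 without any 1 of the CD45.1 libraries, and 4 without CD45.2 of mouse 5 or mouse 6. The median log2 fold change was −2.59, or −2.39 with 4 tested peaks at their bound.

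**Figure D5:**
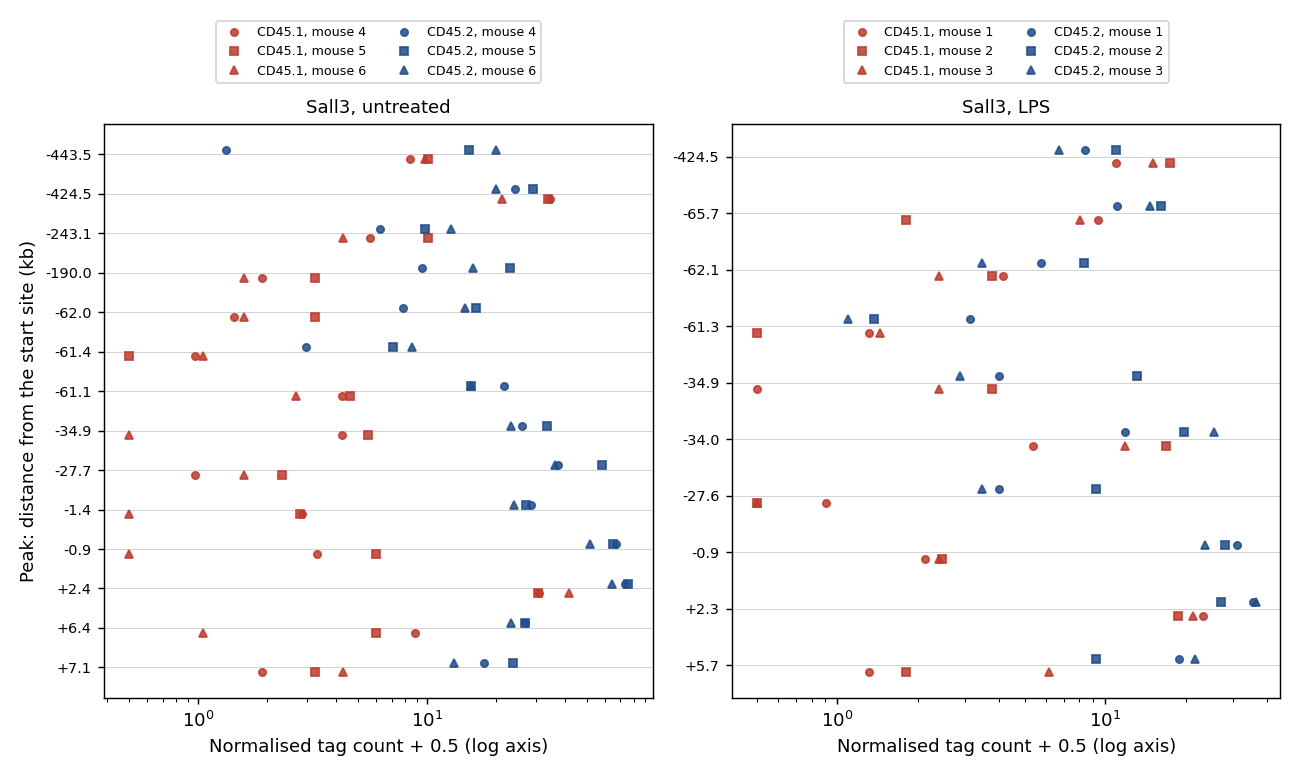
Normalised tag count plus 0.5 on a log axis (horizontal) of each Sall3 peak, listed by distance from the start site in kb, in each library of untreated mice (14 peaks) and LPS mice (10 peaks). The populations separate widely at the promoter and at −27.7 kb in untreated mice and overlap at −443.5, −424.5 and −243.1 kb.

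The promoter peak of Sall3 was among the most separated. At −0.9 kb (81184107 to 81184244), CD45.1 had 2.80, 5.48 and 0 tags in mice 4, 5 and 6 and CD45.2 had 66.4, 64.2 and 51.1 (log2 fold change −4.37, SE 0.568, DESeq2 adjusted p 4.55e-12). At −27.7 kb, CD45.1 had 0.466, 1.83 and 1.09 tags and CD45.2 had 36.9, 57.7 and 35.7. The observed CD45.2 mean was at least 14.8-fold higher (−5.48, SE 0.908, adjusted p 1.23e-07). Both calls were kept without any 1 library. Engrafted cells were thus at or near 0 at both sites. The intronic +2.4 kb peak, the strongest of the locus in host cells, had 30.3, 30.1 and 41.4 tags against 72.9, 75.1 and 63.7 (−1.06, SE 0.273, adjusted p 0.00151, or 0.0237 with the mouse as a block). The groups did not overlap there, but the difference was under 4-fold and was not called.

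Sall3 peaks far upstream did not follow the rest. At −424.5 kb, CD45.1 had 34.0, 33.3 and 20.7 tags and CD45.2 had 23.8, 28.6 and 19.5 (0.30, SE 0.375, DESeq2 adjusted p 0.750). The farthest peak, at −443.5 kb in an LTR, had 7.93, 9.58 and 9.26 against 0.819, 14.7 and 19.5 (−0.53, SE 0.678, adjusted p 0.755). The −243.1 kb peak in a LINE had 5.13, 9.58 and 3.81 against 5.74, 9.29 and 12.2 (−0.58, SE 0.667, adjusted p 0.716). In all 3 the populations overlapped. The 5 peaks from −1.4 to +7.1 kb held 54.8% ± 5.63 (SD, n = 3) of the host Sall3 signal, the 2 at −34.9 and −27.7 kb held 19.1% ± 2.26, and the 2 at −443.5 and −424.5 kb held 9.70% ± 2.29. The peaks at −190.0, −62.0 and −61.1 kb were called, and that at −61.4 kb was too low to test.

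After LPS, 7 of 10 Sall3 peaks were tested and 1 was called higher in CD45.2, beside 1.20% of all tested peaks. It was the promoter peak at −0.9 kb (81184118 to 81184266), with 1.62, 1.96 and 1.89 tags in CD45.1 against 30.7, 27.5 and 23.1 in CD45.2. The observed CD45.2 mean was at least 8.86-fold higher (−3.78, SE 0.719, DESeq2 adjusted p 1.95e-05). The +2.3 kb peak had 22.6, 18.3 and 20.8 tags against 35.1, 26.6 and 35.9 (−0.64, SE 0.372, adjusted p 0.435). At −34.0 kb the values were 4.85, 16.3 and 11.3 against 11.4, 19.2 and 24.9 (−0.89, SE 0.537, adjusted p 0.461). At +2.3 kb the groups did not overlap, and at −34.0 kb they did.

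The farthest LPS peak, at −424.5 kb, had 10.5, 17 and 14.6 tags in CD45.1 and 7.89, 10.5 and 6.23 in CD45.2 (0.85, SE 0.570, DESeq2 adjusted p 0.536). The intronic peak at +5.7 kb missed the call, with 0.809, 1.30 and 5.66 tags against 18.4, 8.72 and 21.1 (−2.60, SE 0.768, adjusted p 0.0157). The groups did not overlap in 5 of the 7 tested peaks. In 4 of these CD45.2 was the higher, beside 13.1% of all tested peaks, and in 1, at −424.5 kb, CD45.1 was.

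Summed Sall3 signal was 104, 117 and 82.9 tags in CD45.1 of untreated mice and 339, 430 and 344 in CD45.2 (log2 fold change −1.88, SE 0.162, DESeq2 adjusted p 1.4e-28). After LPS it was 54.9, 63.6 and 67.7 against 129, 138 and 135 (−1.13, SE 0.218, adjusted p 1.42e-05). Engrafted cells had 30.5%, 27.1% and 24.1% of the host signal in untreated mice and 42.4%, 45.9% and 50.3% in LPS mice, sets that do not overlap. Over the 6 matched peaks the interaction was 0.75 (SE 0.283, 95% interval 0.20 to 1.30, unadjusted p 0.00808), and its adjusted p of 0.574 over all genes did not pass, while 0.190% of 14773 genes passed. CD45.2 had 164 ± 25.2 tags untreated and 123 ± 13.8 after LPS (adjusted p 0.0844), and CD45.1 had 48.8 ± 5.95 and 61.4 ± 4.55 (adjusted p 0.280, or 0.0318 with counts scaled by peak width).

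Other members of the family and of linked pathways were set beside these loci. Sall2, the relative of Sall1 and Sall3, had 6 untreated and 3 LPS peaks and differed by −0.22 (DESeq2 adjusted p 0.612) and −0.03 (adjusted p 0.979), and Sall4 had no peak. Of 13 NuRD genes, 0 passed higher in CD45.2 and 2 higher in CD45.1 in untreated mice. These were Mta3, a metastasis-associated subunit (0.62, adjusted p 7.71e-05), and Mbd2, a reader of methylated DNA (0.49, adjusted p 0.000204). The share of all genes that passed higher in CD45.2 was 7.46%, and that higher in CD45.1 was 7.35%. The list's median was 0.11, beside −0.000942 for all genes.

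Of 15 tested genes of the TGF-beta pathway, 1 passed higher in CD45.2 and 4 higher in CD45.1 in untreated mice, with a median of 0.12. For this list and the lineage factors below, the shares over all genes were 7.46% higher in CD45.2 and 7.35% higher in CD45.1. Tgfb2, a ligand, was higher in CD45.2 (−0.68, DESeq2 adjusted p 0.00540, or 0.0617 with the mouse as a block). Itgb8, an integrin subunit that activates latent TGF-beta, was higher in CD45.1 (0.90, adjusted p 6.68e-06), as was the ligand Tgfb3 (0.58, adjusted p 1.81e-05). Of 12 lineage factors 2 passed higher in CD45.2, Tal1 (−0.44, adjusted p 0.00252) and Zeb2 (−0.34, adjusted p 0.00368), and Tfec passed higher in CD45.1 (1.22, adjusted p 4.64e-11). The median of this list was 0.09. With total tags as the scale, Mta3, Mbd2, Itgb8, Tgfb3, Tgfb2, Tal1 and Zeb2 no longer passed (adjusted p 0.170 to 1.00).

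Of the 12 host-enriched genes that the study named on these samples, which are no independent evidence of direction, 6 passed higher in CD45.2, beside 7.46% of all genes, and 0 higher in CD45.1, with a median of −0.33. With total tags as the scale 3 passed. Klf12 (−3.90, DESeq2 adjusted p 1.01e-109) and Rxrg (−3.23, adjusted p 6.31e-52) had the lowest adjusted p. After LPS 4 of these 12 passed, beside 2.99% of all genes, with Klf12 at −3.38 and Rxrg at −2.75 and a median of −0.26. In the other lists Mta3 (0.73, adjusted p 0.00994, or 0.152 with the mouse as a block), Itgb8 (1.111, adjusted p 1.96e-05) and Tfec (1.36, adjusted p 1.58e-09) passed higher in CD45.1, beside 4.10% of genes, and none passed higher in CD45.2. The LPS medians were 0.00 for NuRD, 0.05 for TGF-beta and −0.12 for the lineage factors.

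Across the 12 libraries and 7568 genes, the summed signal most like that of Sall1 on the log2 scale was that of Khdrbs3, an RNA-binding protein gene (Pearson r 0.981), followed by 2900052N01Rik (0.977), 4930449E18Rik (0.973), Eif3j2 (0.969) and Tmem204 (0.963). Khdrbs3 had 6.48 to 33.4 tags in untreated CD45.1 and 180 to 188 in untreated CD45.2, with 21.2 to 25.3 and 98.8 to 183 after LPS. The points share libraries and depth, and these correlations are a description.

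Short words of factors known to act at macrophage enhancers were counted in 200 bp around each peak centre. Of 22 untreated Sall1 peaks, 13 held the SMAD word CAGAC, which is short and was found in 41.0% of all peaks. The PU.1 word GAGGAAGT was in 2, beside 9.45% of all peaks, and the composite ETS-IRF word was in 3, beside 5.75%. RUNX (TGTGGT) was in 4, beside 15.8%. AP-1 (TGANTCA), CEBP (TTGCNNAA) and CTCF (AGNNGGCGC) were in 1 each, beside 8.11%, 9.82% and 7.39%. IRF and MEF2 words were in 0, beside 3.85% and 3.06%. Of 14 untreated Sall3 peaks, 6 held the SMAD word and 5 the CEBP word, beside the same shares of all peaks. ETS-IRF, AP-1 and RUNX words were in 2 each, IRF and CTCF words in 1 each, and PU.1 and MEF2 words in 0. Median GC content was 50.8% at Sall1, 50.5% at Sall3 and 52.0% over all peaks. Both strands were searched, the words can overlap one another, and a match is a description of letters only.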

How the data were processed

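ATAC-seq libraries of 12 samples in 4 groups of 3 were used, grouped by the labels. The submitters' processing notes name bcl2fastq 2.17.1.14, Bowtie2, Picard 1.108, HOMER and the build mm9, without their settings. The authors called peaks with HOMER in each library and counted tags in merged peaks. The deposited merged tables hold estimated counts, some of them not whole, which were rounded to whole numbers here. The deposited peak list of each library gives a ratio, the fold of tag density over the local background. Gene annotation and sequence were from mm9 (NCBIM37, GENCODE vM1).

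Each table was fitted alone with DESeq2 1.42.0 in R 4.3.3, with median-of-ratios size factors, after a filter of over 10 tags in at least 1 of 6 libraries. The main fits, including those of the interaction, left out the pairing of libraries by mouse. The mouse entered only as a block in an alternative fit. Peaks were called at an adjusted p under 0.01 and over 4-fold, and summed signal per gene name and interactions at an adjusted p under 0.05 (Benjamini-Hochberg, all features). Fold changes are CD45.1 over CD45.2. Where every CD45.1 library held at most 3 tags, a bound against 3 tags per library is given. It bounds the observed ratio of means, is no confidence limit and does not cover sampling error. edgeR 4.0.16, other scalings, filters, matchings and left-out libraries were tried as alternatives. The fits were tested on simulated data. Other steps used Python 3.11.15, pandas 2.3.3 and numpy 2.4.6.

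The mouse number pairs CD45.1 and CD45.2 of one mouse, per the series' design. Deviations from the group means correlated at 0.0766 to 0.0904 in untreated pairs and −0.0662 to 0.152 in LPS pairs. Members and gene lists were chosen with earlier results of these data known. Every member was counted, and values by library were given for the promoter peak, the 5 Sall1 or 3 Sall3 peaks with the highest mean, the nearest and farthest peaks and those against the majority. From each list, the 2 genes with the lowest adjusted p in each direction were named, and for likeness the 5 genes with the highest r. Alternatives for neighbouring and Mir8110 peaks were added after seeing the data. Sall3 sequence was not used here.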

Additional observations from a re-analysis of the deposited data

How the results depend on the processing

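The summed difference at Sall1 and Sall3 kept its direction and its side of the threshold under every alternative run. Leaving out each library in turn gave −3.82 to −2.74 for Sall1 untreated (adjusted p up to 0.0138), −3.44 to −2.93 for Sall1 LPS, −2.00 to −1.76 for Sall3 untreated and −1.19 to −1.03 for Sall3 LPS. Counts of called peaks changed with the library that was left out. Leaving out 1 library gave 8 to 18 for Sall1 untreated (main 20), 3 to 8 for Sall1 LPS (11), 4 to 7 for Sall3 untreated (9), 1 to 1 for Sall3 LPS (1), 4 to 8 for the neighbours of Sall1 (9), and 16 to 17 for genes of the lists (18). With a mean count of at least 20, 7 of 8 tested Sall1 peaks were called in untreated mice, 2 of 2 in LPS mice, 2 of 4 at Sall3 untreated, 0 of 1 at Sall3 LPS and 0 of the neighbours. The smaller counts there follow from fewer peaks tested. With total tags as the scale, 5 Sall3 untreated peaks and 6 untreated list genes passed, and the cause was not tested. On that scale the LPS median log2 fold change was 0.135 over peaks and 0.117 over genes, beside −0.00766 and −0.0119 with median-of-ratios size factors. edgeR called 2 Sall3 LPS peaks and 1 neighbour after LPS.

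With the mouse as a replicate block, 5 Sall3 untreated peaks and 5 Sall1 LPS peaks were called. Beside the calls of single peaks, Tgfb2 untreated and Mta3 LPS, the block changed no call of a summed signal or an interaction named here. The Sall1 interaction, which did not pass, ranged from −0.388 to 0.771 and turned negative without CD45.1 of LPS mouse 2 (−0.179) or of untreated mouse 6 (−0.388). Among differences that did not pass, the Sall3 peak at −443.5 kb turned to 0.053 without CD45.2 of mouse 6. Sall2 after LPS ranged from −0.329 to 0.154 when libraries were left out, and turned to 0.11 with total tags, 0.003 with edgeR, and 0.02, 0.15 and 0.13 without CD45.1 of mouse 2, CD45.1 of mouse 3 and CD45.2 of mouse 1. LPS libraries were the shallower, and 3 Sall1 and 3 Sall3 peaks did not pass the count filter there.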
